A study of Homo sapiens with 8 samples.

Results

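NELL2 and 9 genes of the ROBO, SLIT and netrin guidance families were followed in DU145, an established epithelial prostate carcinoma line derived from a brain metastasis. The comparison asks which transcripts differ when SOX11, a transcription factor of the developing nervous system, is expressed in this line. RNA was sequenced from DU145 cells with exogenous SOX11 (4 libraries) and from control DU145 cells (4 libraries). Both groups were grown in DMEM with fetal bovine serum, and the labels name no vector, clone or harvest time. The 10 genes were chosen by name, with their fold changes between these same libraries already known. Their values are therefore given as a description, and the calls that stand beside them are not independent evidence. Of the 10 genes, 9 had a row among the 32066 genes of the count table. ROBO2 had no row and is not analysed here.

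Many guidance ligands are secreted proteins that steer growing axons and migrating cells by attraction or repulsion. SLIT proteins repel through ROBO receptors, and netrins act through DCC, its relative neogenin and the UNC5 receptors. In the mouse, NELL2 is a repellent that binds ROBO3, a receptor that in mammals has lost high-affinity binding to SLITs. NTN4 is a netrin of basement membranes that binds laminin. Several of these families also act outside the nervous system, in blood vessels and epithelia.

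Sequences are shown for the members at which a lower level was measured and for the microRNA that lies inside both SLIT genes. RefSeq promoter windows (GRCh38.p14, 250 bases before to 50 after an annotated start, read 5′ to 3′ on the gene's strand) were held for 7 of the 10 genes, and not for NELL2, NTN1 or UNC5B. For a gene with several windows, the one nearest the GENCODE 29 gene start was read. The ROBO3 window lies at chr11:124865182-124865481 on the plus strand and the NTN4 window at chr12:95791106-95791405 on the minus strand. The single capital letter marks the annotated start.
ROBO3: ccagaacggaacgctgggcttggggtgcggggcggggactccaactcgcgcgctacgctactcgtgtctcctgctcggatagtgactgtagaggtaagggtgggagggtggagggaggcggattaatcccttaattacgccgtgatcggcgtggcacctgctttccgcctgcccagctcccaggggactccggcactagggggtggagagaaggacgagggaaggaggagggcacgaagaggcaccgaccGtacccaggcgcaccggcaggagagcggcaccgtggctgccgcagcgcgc
NTN4: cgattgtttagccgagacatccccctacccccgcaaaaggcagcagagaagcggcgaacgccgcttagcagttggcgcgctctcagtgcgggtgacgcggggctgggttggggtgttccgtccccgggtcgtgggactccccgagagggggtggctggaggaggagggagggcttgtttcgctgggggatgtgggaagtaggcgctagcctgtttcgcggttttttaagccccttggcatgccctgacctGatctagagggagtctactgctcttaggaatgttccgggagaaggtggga

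These windows were searched on both strands for ACAATG and ACAAAG, core sequences bound by the HMG box of SOX proteins, which read CATTGT and CTTTGT on the other strand. Neither motif was found in the 7 windows. Among all 35116 promoter windows of the table, 10.8% held ACAATG, 16.1% held ACAAAG and 24.5% held at least 1 of them. The absence says only that these letters are not in these 300 bases. The ROBO3 window was 66.7% G and C and the NTN4 window 62.3%, against a median of 58.7% over all windows.

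Both SLIT genes carry a copy of miR-218, MIR218-1 within SLIT2 on chromosome 4 and MIR218-2 within SLIT3 on chromosome 5. The mature microRNA, at chr4:20528299-20528319 and chr5:168768211-168768231, is the same from both loci. Capitals mark the seed, bases 2 to 8.
hsa-miR-218-5p: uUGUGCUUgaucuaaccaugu

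MicroRNAs were not measured here, since the libraries were made from poly(A) RNA. Of the host genes, SLIT2 was detected at low counts in every library, and SLIT3 had 1 count in each group.

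Total counts per library were 15309037 to 16740516 in SOX11 cells and 14641250 to 18706095 in control cells. SOX11 itself had 303 to 317 counts in the SOX11 libraries and 0 in each control library. The epithelial markers KRT8, KRT18, KRT19, EPCAM and CDH1 were all detected. Their summed level was 1198 to 1204 CPM (counts scaled to a common library size) in SOX11 cells and 1494 to 1758 CPM in control cells. The 3 lower genes of these 5 were KRT8, KRT18 and KRT19, while EPCAM and CDH1 were called in neither direction. Fibroblast markers summed to 5.77 to 7.64 CPM in SOX11 cells and 2.91 to 5.10 CPM in control cells. That list held 3 genes with a row of 5, of which COL1A1 was higher, while DCN and LUM had no row. Neuron markers (2 of 5 with a row, SNAP25 and SYT1) summed to 9.88 to 12.8 CPM in SOX11 cells and 9.12 to 11.3 CPM in control cells. Endothelial markers (4 of 4 with a row) stayed at or below 0.531 CPM in SOX11 cells and 0.637 CPM in control cells, and blood markers (2 of 4 with a row) at or below 0.649 CPM in SOX11 cells and 0.754 CPM in control cells. The part of these marker differences in the values below was not tested.

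Of the 9 genes with a row, 7 passed the filter on low counts and 2 did not (SLIT3 and UNC5B). A gene is said to have risen or fallen where its adjusted p was below 0.05 in edgeR's quasi-likelihood test over all 15665 tested genes. By that rule NELL2 and NTN1 rose, NTN4 and ROBO3 fell, and ROBO1, SLIT2 and NEO1 were not called. Over all tested genes, 20.0% were called, 10.3% higher and 9.67% lower. The CPM ranges of the 2 groups did not overlap for the 4 called members, nor for 21.1% of all tested genes. Nothing is read from the members' share, since these libraries were used to choose them.

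**Figure D1:**
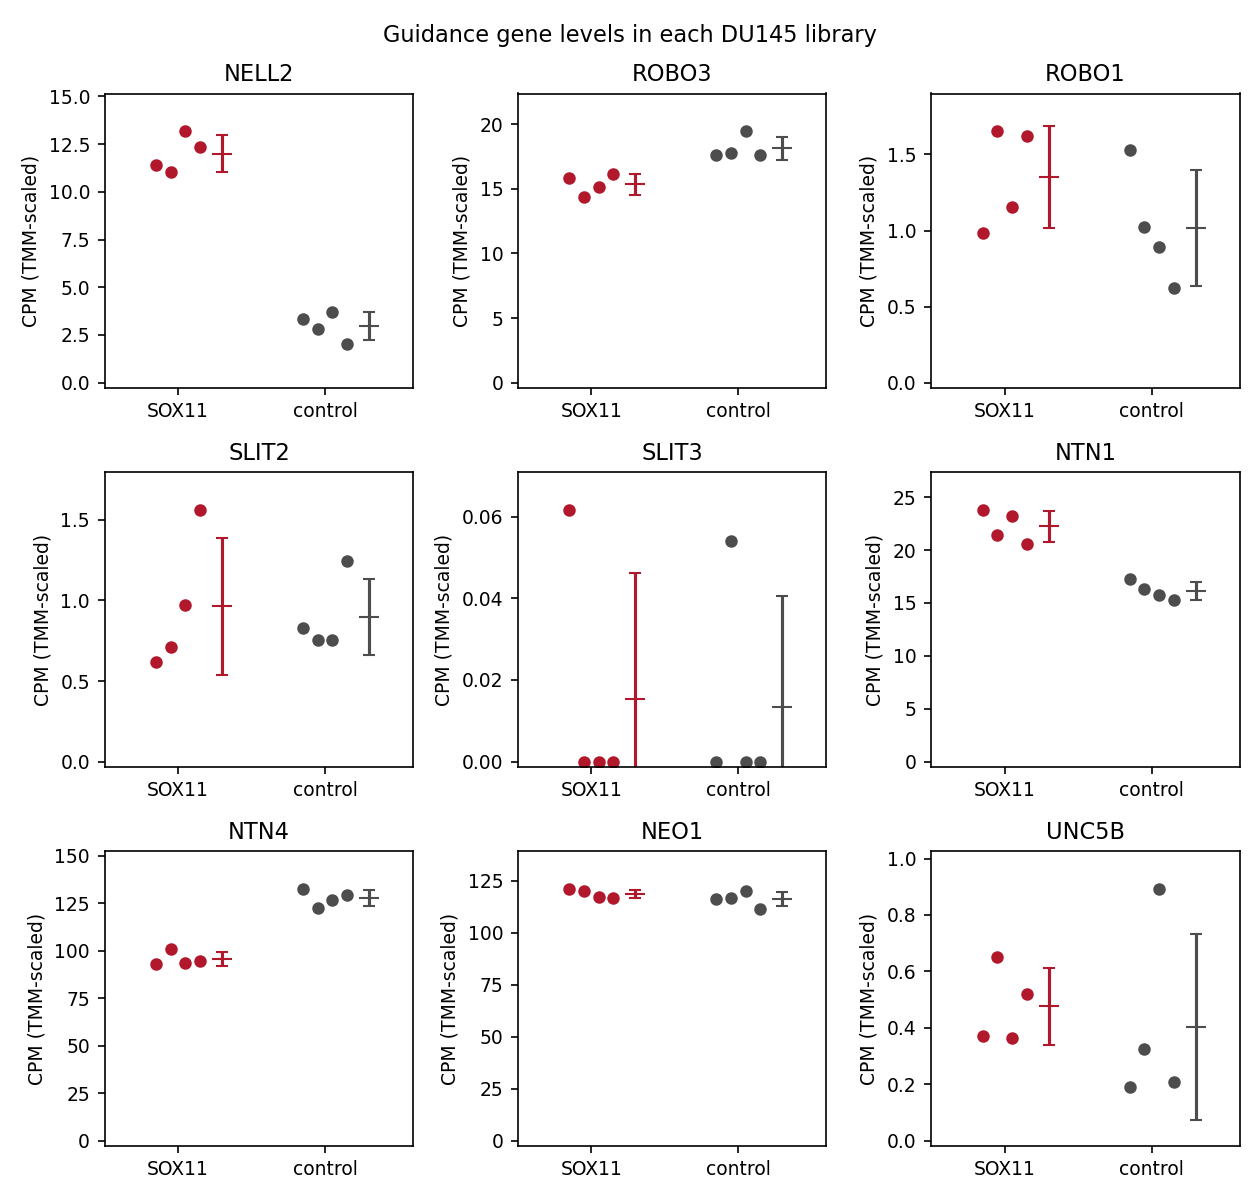
Level of each of the 9 guidance genes with a row in every library, as CPM scaled by TMM factors, with SOX11 libraries in red and control libraries in grey. Points are libraries and the bars beside them give mean ± SD (n = 4), cut off just below 0 for SLIT3. The panels have their own scales, and the groups separate for NELL2, ROBO3, NTN1 and NTN4.

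NELL2, a secreted ligand of ROBO3, showed the largest difference of the tested members. It had 185, 187, 217 and 190 counts in the SOX11 libraries, against 52, 52, 54 and 29 in the control libraries. All SOX11 libraries lay well above all control libraries, and control replicate 4 was the lowest of its group. The level averaged 12.0 ± 0.964 CPM in SOX11 cells and 2.96 ± 0.732 CPM in control cells (SD, n = 4 each). The log2 fold change was 2.02 ± 0.127 (SE), a 4.04-fold higher level with a 95% interval of 3.40 to 4.81. By this measure NELL2 ranked 18th from the top of the 15665 tested genes. NELL2 (ENSG00000184613) spans 44508275 to 44921848 on the minus strand of chromosome 12 (GRCh38, GENCODE 29, as for all gene positions here). No overlapping annotated gene of that locus had a row in the table. A rise in bulk RNA can come from more RNA per cell or from more cells with the transcript, and these cannot be told apart here.

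ROBO3, a receptor that NELL2 binds, fell slightly. It had 257, 243, 249 and 248 counts in the SOX11 libraries, against 277, 329, 284 and 255 in the control libraries. After scaling for library size the groups did not overlap, at 15.4 ± 0.792 CPM in SOX11 cells and 18.1 ± 0.892 CPM in control cells (SD, n = 4 each). The log2 fold change was -0.24 ± 0.0704 (SE), or 0.847 of the control level (95% interval 0.770 to 0.932). Control replicate 3, at 19.5 CPM, stood above the other control libraries. The call ended without control replicate 3 or without SOX11 replicate 2, each with a log2 fold change of -0.21. ROBO3 (ENSG00000154134) spans 124865386 to 124881470 on the plus strand of chromosome 11 and overlaps no other annotated gene.

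Divided by exon length, the ratio of NELL2 to ROBO3 transcripts was 0.787, 0.842, 0.953 and 0.838 in the SOX11 libraries. In the control libraries it was 0.205, 0.173, 0.208 and 0.124. The ligand's transcript was thus near the level of the receptor's in SOX11 cells and well under it in every control library.

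ROBO1, a classical SLIT receptor, was near the lower limit of measurement. It had 16, 28, 19 and 25 counts in the SOX11 libraries, against 24, 19, 13 and 9 in the control libraries. The groups overlapped, and the log2 fold change of 0.40 ± 0.265 (SE) was not called. Its 95% interval ran from 0.918 to 1.89 times the control level, so at this depth a small fall or a rise of moderate size was not distinguishable from no change. ROBO1 (ENSG00000169855) spans 78597240 to 79767815 on the minus strand of chromosome 3.

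Both SLIT ligands were scarce. SLIT2 had 10, 12, 16 and 24 counts in the SOX11 libraries, against 13, 14, 11 and 18 in the control libraries. The groups overlapped and the log2 fold change was 0.11 ± 0.300 (SE), with a 95% interval of 0.716 to 1.62 times the control level. Without SOX11 replicate 4, the highest library, the value was -0.21. SLIT3 had 1 count in SOX11 replicate 1 and 1 count in control replicate 2, and 0 counts in the other libraries. A group total of 3 counts, the limit that 0 counts allow, corresponds to 0.0461 CPM in SOX11 cells and 0.0474 CPM in control cells. The SLIT3 total of 1 count per group lay under 3 counts. That limit holds for a count of 0, so the true SLIT3 level may lie above it. No fold is given for SLIT3. SLIT2 (ENSG00000145147) spans 20253260 to 20620561 on the plus strand of chromosome 4. SLIT3 (ENSG00000184347) spans 168661733 to 169301129 on the minus strand of chromosome 5.

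The netrin genes moved in opposite directions. NTN1, the founding netrin of commissural axon guidance, had 386, 363, 382 and 317 counts in the SOX11 libraries, against 271, 303, 230 and 221 in the control libraries. Every SOX11 library was higher after scaling, at 22.2 ± 1.48 CPM in SOX11 cells and 16.2 ± 0.856 CPM in control cells (SD, n = 4 each). The log2 fold change was 0.46 ± 0.0685 (SE), a 1.37-fold higher level (95% interval 1.25 to 1.51). NTN1 (ENSG00000065320) spans 9021542 to 9244000 on the plus strand of chromosome 17.

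NTN4, the basement membrane netrin, had 1510, 1714, 1543 and 1456 counts in the SOX11 libraries, against 2078, 2270, 1851 and 1868 in the control libraries. The level fell to 95.6 ± 3.77 CPM in SOX11 cells, against 128 ± 4.17 CPM in control cells (SD, n = 4 each), with no overlap. The log2 fold change was -0.42 ± 0.0378 (SE), or 0.749 of the control level (95% interval 0.711 to 0.788). NTN4 (ENSG00000074527) spans 95657807 to 95791152 on the minus strand of chromosome 12, the chromosome that also holds NELL2.

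Per exon length, NTN4 remained the more abundant netrin in all 8 libraries. The ratio of NTN1 to NTN4 was 0.167, 0.138, 0.162 and 0.142 in the SOX11 libraries. It was 0.0851, 0.0871, 0.0811 and 0.0772 in the control libraries, lower in each than in any SOX11 library.

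NEO1, which encodes neogenin, a receptor for netrins and for RGM proteins, was the most abundant receptor of the group. It had 1965, 2034, 1932 and 1800 counts in the SOX11 libraries, against 1826, 2164, 1755 and 1614 in the control libraries. The groups overlapped at 119 ± 2.01 CPM in SOX11 cells and 116 ± 3.56 CPM in control cells (SD, n = 4 each). The log2 fold change was 0.03 ± 0.0353 (SE), and the 95% interval of 0.974 to 1.07 times the control level bounds any difference to a small one. NEO1 (ENSG00000067141) spans 73051710 to 73305206 on the plus strand of chromosome 15. UNC5B, a netrin receptor known from blood vessels, had 6, 11, 6 and 8 counts in the SOX11 libraries, against 3, 6, 13 and 3 in the control libraries. It overlapped between groups and was too low to test. UNC5B (ENSG00000107731) spans 71212570 to 71302864 on the plus strand of chromosome 10.

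**Figure D2:**
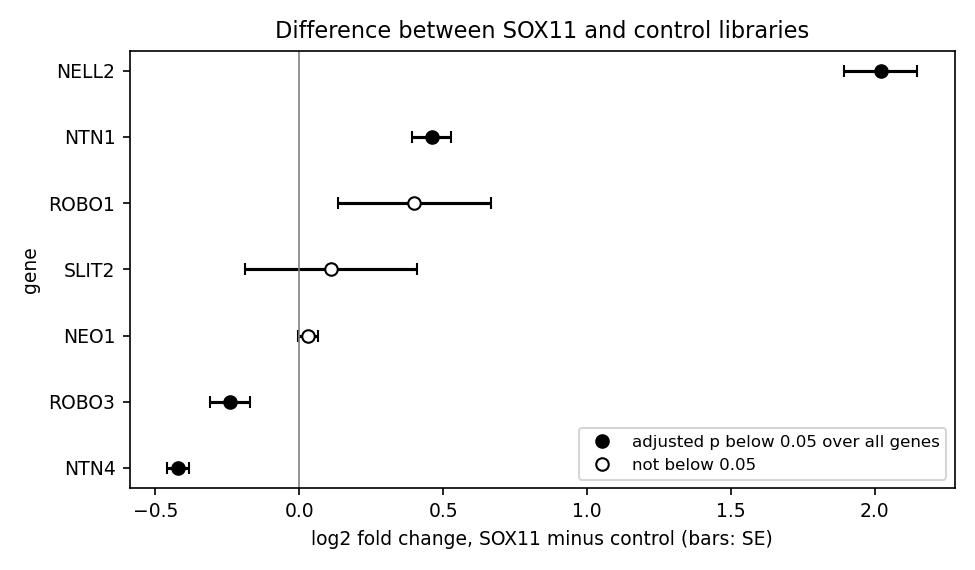
Log2 fold change (SOX11 minus control) of the 7 tested guidance genes, with bars of 1 SE; filled points had an adjusted p below 0.05 over all genes. NELL2 lies at 2.02, apart from the other 6, which lie between -0.42 and 0.46.

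Levels were compared between genes as CPM per kilobase of GENCODE 29 exon. In SOX11 cells the order was NTN4 (23.0 ± 0.906), NEO1 (14.6 ± 0.247), NTN1 (3.49 ± 0.232), ROBO3 (2.19 ± 0.113) and NELL2 (1.87 ± 0.150), then ROBO1, SLIT2, UNC5B and SLIT3 (mean ± SD, n = 4). In control cells it was NTN4 (30.7 ± 1.00), NEO1 (14.3 ± 0.438), ROBO3 (2.58 ± 0.127), NTN1 (2.53 ± 0.134) and NELL2 (0.460 ± 0.114), then the same 4 scarce genes. ROBO3 and NELL2 overlapped in their library ranges in SOX11 cells but not in control cells. NTN1 and ROBO3 overlapped in control cells but not in SOX11 cells. In both groups ROBO1 overlapped with SLIT2 and SLIT2 with UNC5B, at 0.125 or less on average, while ROBO1 lay below NELL2 and SLIT3 below UNC5B without overlap.

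**Figure D3:**
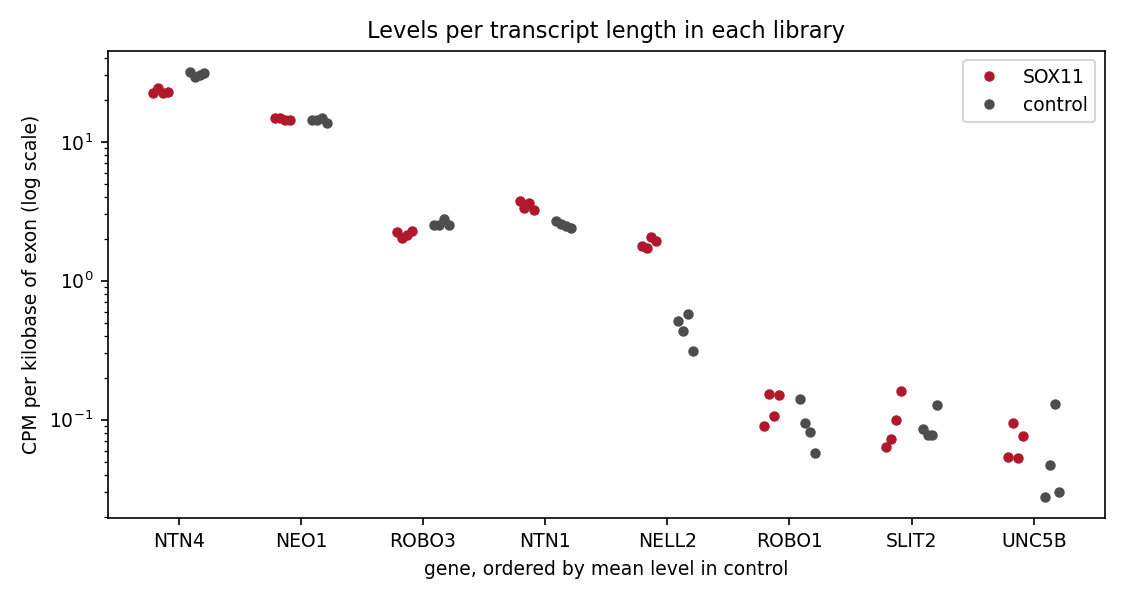
CPM per kilobase of exon on a log axis for 8 guidance genes, ordered by their mean in control; each point is a library, with SOX11 (red) left of control (grey). SLIT3 is left out because it was at 0 in 6 of 8 libraries. NELL2 in SOX11 cells, at 1.72 to 2.05, reaches the range of ROBO3.

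The genes whose log2 CPM followed that of NELL2 most closely over the 8 libraries were, by Pearson's r among 14393 genes of at least 1 CPM, ACAA2 (0.994), TBC1D16 (0.994), PCDHA3 (0.991), BRD3 (0.991) and RAB11FIP4 (0.989). These values are a description, since all 8 points share the difference between the groups. The log2 fold changes of these genes were smaller than that of NELL2, from 0.29 for BRD3 to 0.83 for RAB11FIP4. PCDHA3 shares exons with the other alpha protocadherins, so its count is uncertain. Among the members of at least 1 CPM, r with NELL2 was 0.95 for NTN1, -0.96 for NTN4 and -0.81 for ROBO3. It was 0.58 for both NEO1 and ROBO1, which were not called.

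The chromosomal surroundings of the members were read from the nearest tested protein-coding gene on each side of the 9 genes with a row. Of these 18 neighbours, 2 were higher, 3 were lower and 13 were not called, where 20.0% of all tested genes were called. Beside NELL2, TMEM117 (119 kb away) averaged 3.72 ± 0.515 CPM in SOX11 cells and 3.36 ± 0.745 CPM in control cells. On the other side, ANO6 (294 kb away) averaged 62.2 ± 2.37 CPM in SOX11 cells and 57.4 ± 1.94 CPM in control cells. Neither passed edgeR's test (adjusted p = 0.541 for TMEM117 and 0.0601 for ANO6, n = 4 per group). The neighbours of NTN1, NTN4 and ROBO3 were not called either.

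Known ligands, receptors and signalling partners outside the members were read as 3 lists of 66 genes, of which 60 had a row and 48 were tested. In these lists 13 genes rose and 3 fell, 33.3% of those tested, against 20.0% of all genes. The called share was 0.0% for the other ligands and receptors, 22.2% for ROBO partners and SLIT cofactors, and 58.8% for netrin receptor partners. The median log2 fold change of the 48 tested genes was 0.02, against 0.00 over all tested genes. With DESeq2, 8 of the listed genes rose and 3 fell, where 2389 of all 15665 tested genes were called. The lists were drawn up with earlier results of these data known, so these shares are a description.

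Among the 20 other ligands and receptors, 4 were tested and 0 were called by edgeR, DESeq2 or limma-voom, with 0 at an unadjusted p below 0.05. RGMB, a ligand of neogenin and the most abundant of them, averaged 23.5 ± 0.933 CPM in SOX11 cells and 23.7 ± 1.62 CPM in control cells. UNC5A, another netrin receptor, and FLRT1 and FLRT3, membrane proteins that bind UNC5 receptors, were tested at low counts, up to 38 in a library. Below the filter were SLIT1 (2 to 8 counts in SOX11 and 4 to 8 in control libraries), ROBO4 (5 to 9 in SOX11, 6 to 19 in control), NTN3 (1 to 3 in SOX11, 0 to 2 in control), NTN5 (8 to 12 in SOX11, 4 to 9 in control), RGMA (1 to 7 in SOX11, 0 to 5 in control), DSCAML1 (2 to 6 in SOX11, 0 to 2 in control), NTNG2 (1 to 3 in SOX11, 0 to 1 in control), and NTNG1, UNC5C and FLRT2, which had at most 1 count in any library. NELL1, DCC, UNC5D, DSCAM, ROS1 and LRRC4C had no row and are not analysed here.

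Of 27 tested ROBO signalling partners and SLIT cofactors, 4 rose, 2 fell and 21 were not called. The called share was 22.2%, near the 20.0% of all tested genes. SDC1, a heparan sulfate proteoglycan of the epithelial surface, fell to 263 ± 10.4 CPM in SOX11 cells, against 312 ± 7.29 CPM in control cells (SD, n = 4 each). Its log2 fold change was -0.24 ± 0.0325, with an edgeR adjusted p of 1.54e-06. CAP1, an actin-binding protein, fell by 0.13 on the log2 scale (edgeR adjusted p = 0.00145) and overlaps PPT1 on the opposite strand. The kinase gene ABL1 (0.17), the exchange factor gene SOS2 (0.19), the adaptor gene NCK2 (0.23) and ENAH (0.12), which encodes an actin regulator, rose on the log2 scale. The NCK2 call ended with DESeq2 (adjusted p = 0.0502). SRGAP1, SRGAP2 and SRGAP3, whose proteins bind ROBO receptors and inactivate small GTPases, were not called. CDC42 had 15 to 27 counts in SOX11 and 23 to 32 in control libraries, against 5874 to 7420 for RAC1 over all libraries. Another protein-coding model of GENCODE 29, AL031281.2, overlaps CDC42 on the same strand, so this count is uncertain.

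Of 17 tested netrin receptor partners, 9 rose, 1 fell and 7 were not called. The called share was 58.8%, against 20.0% of all tested genes. This list was drawn up with earlier results of these data known, so its share is a description and not independent evidence. All tested genes were not matched to the list in level. The count called was 5 without control replicate 4 and 6 without control replicate 2 or SOX11 replicate 3. It was 6 without a filter and 6 with DESeq2. In the same order, 2554, 2466, 2636, 3112 and 2389 of all genes were called, against 3130 in the main fit. The fit without a filter tested 32066 genes. DAPK1, a death-associated kinase that binds UNC5 receptors, rose to 34.8 ± 3.03 CPM in SOX11 cells, against 26.2 ± 2.10 CPM in control cells (SD, n = 4 each). Its log2 fold change was 0.41 ± 0.0644, with an edgeR adjusted p of 2.05e-05. A pseudogene with 85 to 137 counts lies within DAPK1 on the same strand. MAGED1, another UNC5-binding protein, rose by 0.23 (edgeR adjusted p = 2.49e-05). PLCG1, a phospholipase gene that overlaps ZHX3 on the opposite strand, rose by 0.20, and PTK2, which encodes focal adhesion kinase, by 0.13 on the log2 scale. MYO10, an unconventional myosin that carries netrin receptors into filopodia, fell to 72.5 ± 1.57 CPM in SOX11 cells, against 89.1 ± 4.22 CPM in control cells (SD, n = 4 each). Its log2 fold change was -0.30 ± 0.0408, with an edgeR adjusted p of 2.44e-06. These 5 genes were called under all 16 alternatives. The other 5 called genes, named after their values were seen, were TRIM9 (0.48), FYN (0.42), SIAH1 (0.16), which overlaps LONP2, ABLIM1 (0.11) and DOCK1 (0.10), and each lost its call under at least 4 of 16 alternatives.

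**Figure D4:**
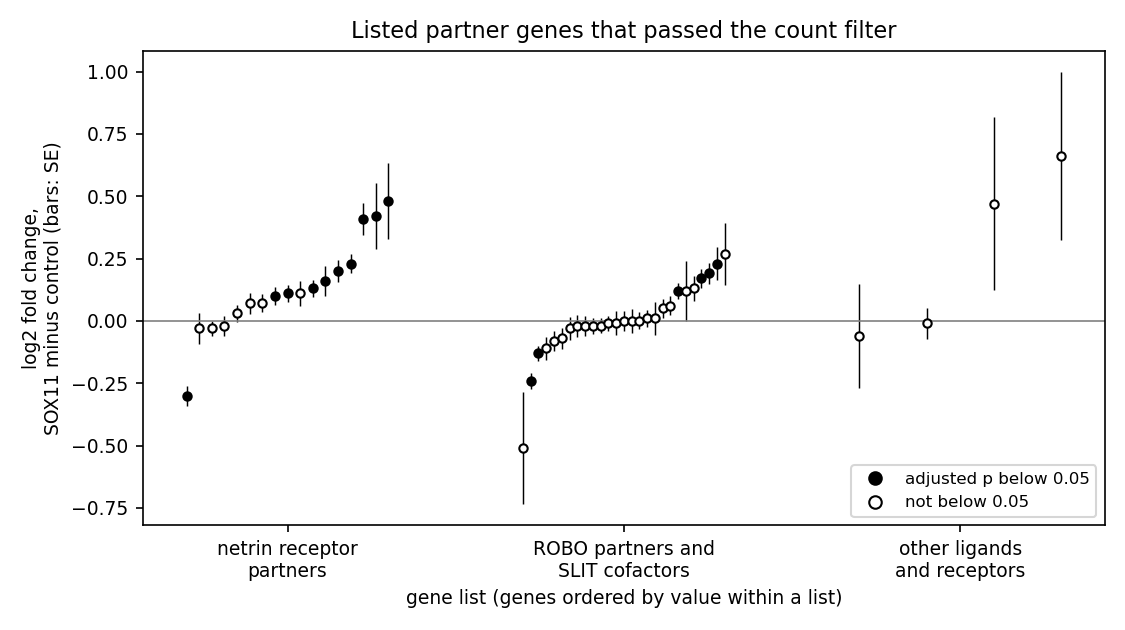
Log2 fold change (SOX11 minus control) of the 48 tested partner genes in 3 lists, ordered by value within a list, with bars of 1 SE; filled points had an edgeR adjusted p below 0.05. Called genes lie between -0.30 and 0.48, all smaller in size than the 2.02 of NELL2.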

How the data were processed

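RNA from 8 DU145 libraries was made into poly(A) libraries with a stranded TruSeq kit, per the labels' protocols. The submitters' processing notes name cutadapt, FastQC, STAR 2.7.0e and GRCh38. For the read counter, the strand setting and the release of the annotation, names are not given in the sources used. The authors deposited raw counts per Ensembl gene, not normalized. Symbols matched 32053 of 32066 identifiers. Coordinates and exon lengths came from GENCODE 29, which may differ from the annotation counted on and holds 30159 of the identifiers.

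Genes were filtered with filterByExpr (minimum count 10), scaled by TMM and tested with the robust quasi-likelihood test of edgeR 4.0.16 in R 4.3.3, SOX11 minus control, with Benjamini-Hochberg adjustment over 15665 genes. Each SE is the absolute log2 fold change divided by the square root of F, and 95% intervals are normal intervals from it. Replicate libraries are not stated to be separate cultures, so p-values measure only the spread between these libraries. Libraries of 1 group differed beyond sampling noise (chi-square per degree of freedom 1.43 to 3.25), so none was counted as a repeat. The floor for a count of 0 and the intervals cover the spread or counting error only.

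The members and lists were chosen with earlier results of these data known. Named were SOX11, all members, from each partner list up to 4 called genes in each direction with the smallest adjusted p (mean of at least 1 CPM), its most abundant tested gene where none was called, listed ligands and receptors below the filter, and the 5 genes most like NELL2. Log2 CPM used a prior count of 2. The model fits, but not the other steps, were tested on simulated counts with known changes. Those changes were larger than those of most genes named here, so small changes were not covered. Alternatives were RLE and upper quartile factors, library sizes without SOX11, no filter, a filter of 1 CPM in 4 libraries, DESeq2 1.42.0, limma-voom (limma 3.58.1), a block for the replicate number, and leaving out each library in turn.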

Additional observations from a re-analysis of the deposited data

Results flagged for a closer look

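In 6 of 52 groups of 4 libraries checked, 1 library lay far from the other 3 by Dixon's test at the 95% level, which chance gives in about 1 of 20 groups. ROBO3 was at 19.5 CPM in control replicate 3, with the next control library at 17.8 CPM. SLIT2 was at 1.25 CPM in control replicate 4, above the other control libraries. SLIT3 was at 0.0616 CPM in SOX11 replicate 1 and at 0.0540 CPM in control replicate 2, each from 1 count. FYN was at 4.18 CPM in control replicate 3, with the next at 3.44 CPM. MAGED1 was at 111.2 CPM in SOX11 replicate 3, with the next at 107.8 CPM.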

How the results depend on the processing

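NELL2, NTN1 and NTN4 kept their direction and their call under all 16 alternatives. Their log2 fold changes were 1.88 to 2.13, 0.42 to 0.49 and -0.45 to -0.40. The alternative on library sizes meant to leave out SOX11 repeated the main values and is no separate check. ROBO3 ranged from -0.27 to -0.21. The number of called members was 3 or 4 throughout and that of called partner genes 11 to 17. Among netrin receptor partners, 10 were called, against 6 without a filter on low counts, 6 with DESeq2 and 5 to 10 with a library left out. Over all genes 3130 were called, against 3112, 2389 and 2466 to 3057 in those settings. The 3112 came from 32066 tested genes and the 3130 from 15665. The cause of the lower counts was not tested. With a library left out, SLIT2 ranged from -0.21 (without SOX11 replicate 4) to 0.29 and RGMB from -0.04 to 0.03 (positive without SOX11 replicate 3, 0.02, or control replicate 1), none of them called. SLIT2 did not pass the stricter filter. With the replicate number as a block, 4 members, 14 partner genes and 2899 of all genes were called, the partner calls of DOCK1 and SIAH1 being lost. Libraries of the same number correlated at -0.0683 to 0.109 in their deviations from the group means. Of 8 libraries, 3 correlated best with their own number. Such weak correlations over few libraries cannot show whether the numbers pair the samples, which the labels do not state. Counts of 29 or fewer per library limit ROBO1, SLIT2 and UNC5B.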
